A study of Mus musculus with 4 samples.

Results

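Crypt base columnar (CBC) stem cell genes were followed in sorted mouse intestinal stem cells (ISCs) of 2 ages. The 10 genes, Lgr5, Ascl2, Olfm4, Smoc2, Rgmb, Slc12a2, Cdca7, Tnfrsf19, Msi1 and Prom1, were taken by symbol from the 52459 genes of the count table, and all 10 were detected. None of them differed between young and old ISCs beyond the false discovery threshold used here, which 2.26% of all genes tested passed, so that a count of 0 in 10 lies near the background. In the TMM-normalized fit, each 95% interval lay within a 2-fold change in either direction. The 2 most highly expressed, Olfm4 and Slc12a2, held between 75.4% and 76.9% of the reads of the 10 genes in every library.

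ISCs were sorted from wildtype C57/Bl6 mice, female per the study's methods, at 2 months (ISC_2mth, young) and at 22 months (ISC_22mth, old). No transgene, reporter or treatment was used. Each age had 2 libraries, and each library came from pooled material of 5 mice, so that differences between single animals were not seen. The gate, named SM6, kept EPCAM+ epithelial cells that were negative for CD31 and CD45, CD24med, CD166+, CD44high, GRP78low and EPHB2high, and cells were therefore chosen by surface protein and not by any of the 10 transcripts.

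CBC cells lie between the Paneth cells at the base of the small intestinal crypt, divide continuously and give rise to all epithelial lineages of the villus and crypt. Wnt ligands and R-spondins, which bind receptors such as LGR5, hold these cells in the stem cell state, together with Notch signals from neighbouring Paneth cells and a low level of BMP signalling. Ascl2, Tnfrsf19 and Lgr5 itself are known targets of Wnt signalling in the crypt, whereas Olfm4 depends on Notch.

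Sequence upstream of the start site was shown for Ascl2 and Tnfrsf19, the members whose old pools lay furthest above and furthest below the young pools. RefSeq windows of GRCm38.p6 were found for 6 of the 10 members, namely Ascl2, Olfm4, Rgmb, Cdca7, Tnfrsf19 and Prom1, and the 250 bases before each start were searched on both strands. Each sequence is written 5′ to 3′ on the strand of the gene, with motif matches in capitals: GGGCGG is a GC box, and CCAAT, or ATTGG on the other strand, is a CCAAT box. The Ascl2 window lies at chr7:142969265-142969514 on the minus strand, and the Tnfrsf19 window at chr14:61046856-61047105 on the minus strand, 365 bases from the outermost 5′ end that GENCODE gives for the gene.
Ascl2: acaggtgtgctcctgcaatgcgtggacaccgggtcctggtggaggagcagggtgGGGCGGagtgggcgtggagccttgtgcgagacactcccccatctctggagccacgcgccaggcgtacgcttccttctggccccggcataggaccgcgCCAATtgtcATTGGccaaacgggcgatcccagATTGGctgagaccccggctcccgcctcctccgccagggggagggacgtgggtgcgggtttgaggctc
Tnfrsf19: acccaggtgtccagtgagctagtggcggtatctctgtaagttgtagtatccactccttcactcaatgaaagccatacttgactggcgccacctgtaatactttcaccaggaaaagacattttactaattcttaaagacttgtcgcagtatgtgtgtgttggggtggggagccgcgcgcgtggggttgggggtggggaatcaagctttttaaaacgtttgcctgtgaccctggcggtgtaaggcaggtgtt

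The Ascl2 window was rich in G and C (67.6%) and held 1 GC box, 196 bases before the start, and 3 CCAAT boxes, 99, 90 and 67 bases before it. The Tnfrsf19 window was 50% G and C and held no match to any motif searched. A GC box was present in 4 of the 6 windows (Ascl2, Rgmb, Cdca7 and Prom1), against 32.7% of all 32851 windows of this length, and a CCAAT box in 3 of the 6 (Ascl2, Olfm4 and Prom1), against 33.8%. The TATA box was searched only as the exact letters TATAAA, which were found in Rgmb alone, 210 bases before the start, against 12.4% of all windows. The TCF/LEF motif, searched in the forms CTTTGAA or CTTTGAT and CTTTGTA or CTTTGTT, was in none of the 6 and in 14.8% of all windows, and the E-box CAGCTG was in none of the 6 and in 13% of all windows. The Olfm4 window lies 16221 bases from the outermost 5′ end that GENCODE gives for the gene, and the other 4 windows within 296 bases of theirs. These counts describe letters in short windows only, and say nothing of binding by the factors.

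Libraries held between 11662654 and 15975698 counts, of which mitochondrially encoded genes took 62.6% and 65.7% in the young pools and 73.8% and 72.9% in the old pools. Outside the mitochondrial genes, between 3852178 and 4593004 counts were left per library. Counts were therefore scaled by TMM, which sets the bulk of genes equal between libraries, and levels are given as CPM, the counts of a gene scaled to a common library total, on that scale. At the threshold of an FDR under 0.05 in edgeR's quasi-likelihood test, 2.26% of the 13692 genes tested differed between ages, 223 of them upward with age (1.63%) and 86 downward (0.628%). Replicate pools differed from each other by more than counting noise (chi-square per gene 9.42 in ISC_2mth and 7.11 in ISC_22mth). That measure takes reads as independent, which amplification without molecular identifiers does not ensure. The pools were used as separate replicates. P-values rest on the spread between these pools, with 2 per age, pooled largely with the spread shared over genes (total degrees of freedom 17.8 to 18.8).

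The 10 genes spanned a wide range of levels. On the scale of CPM per kilobase of exon, which allows genes to be compared, Olfm4, a secreted glycoprotein of crypt base cells, was highest at 416 ± 29.4 (SD over the 4 libraries). Slc12a2, the sodium-potassium-chloride cotransporter NKCC1, followed at 85.7 ± 8.69. The ranges of these 2 genes did not overlap, and the mean of Olfm4 was 4.86 times that of Slc12a2.

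Below them came Ascl2 at 29.9 ± 3.90, Prom1 at 24.8 ± 3.75, Lgr5 at 21.4 ± 1.91 and Cdca7 at 18.2 ± 1.96 CPM per kilobase. Neighbours among these 4 overlapped in range, although Ascl2 was above Prom1, and Lgr5 above Cdca7, in 4 of 4 libraries. Prom1 was above Lgr5 in 3 of 4. Smoc2 stood apart from both of its neighbours at 12.8 ± 1.16. Rgmb (5.00 ± 0.981) and Msi1 (4.82 ± 0.409) changed places between libraries, and Tnfrsf19 was lowest at 2.72 ± 0.657. Among the 13236 tested genes with an annotated length, Olfm4 lay at percentile 99.8 of level, Lgr5 at percentile 96.2 and Tnfrsf19 at percentile 57.1.

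**Figure D1:**
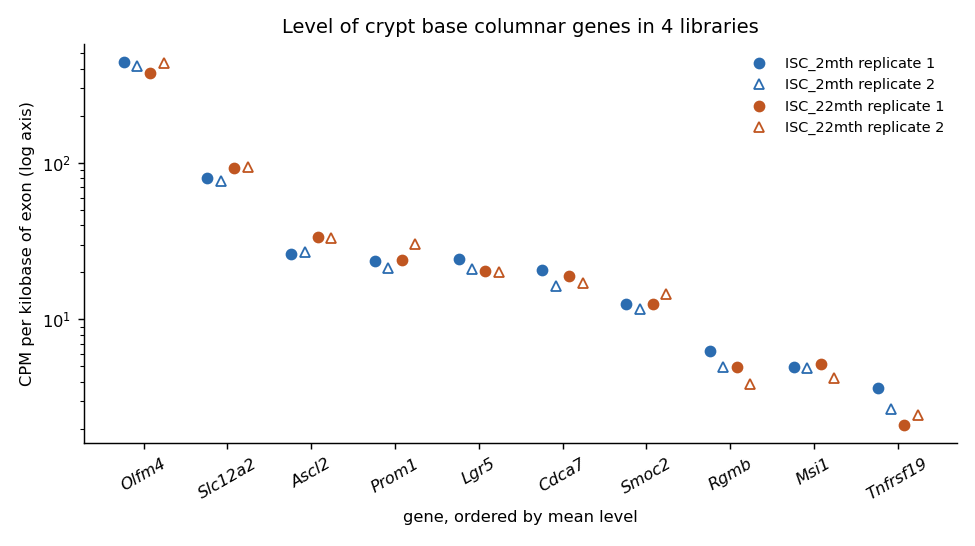
Level of the 10 genes in CPM per kilobase of exon (log axis), with 1 point per library, blue for ISC_2mth and orange for ISC_22mth. Olfm4 lies between 375 and 439 and Tnfrsf19 between 2.11 and 3.64, and the points of both ages lie close together for each gene.

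Ascl2 (chr7:142966829-142969264, minus strand, in GENCODE vM21 of GRCm38, as for the other positions), the basic helix-loop-helix transcription factor that specifies CBC identity, gave 42.5 and 43.6 CPM in the young pools and 54.1 and 53.9 CPM in the old pools. The old pools were both above the young pools, and replicates nearly coincided. The fitted change was 0.33 on the log2 scale (SE 0.13, 95% interval 0.06 to 0.60), a level 1.25 times that of young ISCs, with an unadjusted p = 0.0202 and an FDR of 0.199 by edgeR's quasi-likelihood test. This was the largest increase among the 10 and did not pass the threshold. In bulk libraries such as these, a change in the number of cells with a transcript and a change in its amount per cell cannot be told apart.

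Among the receptors, Lgr5 (chr10:115450311-115587780, minus strand), the R-spondin receptor that defines CBC cells, gave 248 and 214 CPM in young pools and 209 and 206 CPM in old pools. The old pools were both below the young pools, but young replicate 2 lay closer to the old pools than to young replicate 1. The fitted change was -0.16 (SE 0.12, interval -0.40 to 0.08; FDR 0.525 by edgeR's quasi-likelihood test), an interval whose lower end in this fit is 0.758 times the young level. Leaving out single libraries moved the change between -0.27 and -0.05. The 3 other genes whose profile over the 4 libraries was closest to that of Lgr5 were Mertk, Ifitm2 and Dcaf17, with root mean square differences of 0.00965, 0.0139 and 0.0139 in centred log2 CPM. With 4 libraries, such likeness is a description of the libraries.

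Tnfrsf19 (chr14:60963875-61046490, minus strand), also called TROY, a member of the tumour necrosis factor receptor family that marks CBC cells, was measured with the fewest reads of the 10, at 250 and 190 counts in young and 132 and 142 counts in old ISCs. On the CPM scale these were 17.2 and 12.6 in young and 9.99 and 11.6 in old ISCs. Both old pools lay below both young pools, by a small margin between young replicate 2 and old replicate 2. The fitted change was -0.46 (SE 0.21, interval -0.90 to -0.03; FDR 0.258 by edgeR's quasi-likelihood test), the largest decrease among the 10, and the difference between the ages was close in size to the gap of 0.45 between the young replicates. Leaving out single libraries moved the change between -0.68 and -0.22.

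Rgmb (chr17:15803188-15831039, minus strand), a membrane-anchored co-receptor for BMP ligands, gave 47.9 and 37.9 CPM in young pools and 38.0 and 29.6 CPM in old pools. The ages met at young replicate 2 and old replicate 1, which were nearly equal. The fitted change was -0.34 (SE 0.16, interval -0.67 to -0.02), with an FDR of 0.274 by edgeR's quasi-likelihood test. Without old replicate 1, Rgmb was called lower (-0.54, FDR 0.0338), a fit in which 1.81% of all genes were called lower and 2.91% higher. Its change was -0.16 (FDR 0.865) without young replicate 1 and -0.18 (FDR 0.621) without old replicate 2.

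The secreted members overlapped between ages. Olfm4 (chr14:79984081-80023139, plus strand) gave 1302 and 1230.1 CPM in young pools and 1111 and 1289 CPM in old pools. The old pools lay on either side of young replicate 2, and the change was -0.08 (SE 0.10, interval -0.29 to 0.14; FDR 0.756 by edgeR's quasi-likelihood test). With at least 14687 reads in every library, Olfm4 was among the members measured with the smallest error, and the interval of this fit put its level in old ISCs at 0.819 to 1.10 times that in young ISCs. With offsets for GC content and length the change was -0.22 (SE 0.12, FDR 0.427). Olfm4 shared 153 bases with Gm6999 on the same strand, an overlap that holds 3.55% of its 50-base stretches.
Smoc2 (chr17:14279506-14404790, plus strand), a secreted calcium-binding matrix protein, gave 87.7 and 81.2 CPM in young pools and 86.8 and 100.2 CPM in old pools, so that the ages overlapped. Its change was 0.15 (SE 0.12, interval -0.11 to 0.41; FDR 0.588), and ran from 0.040 without old replicate 2 to 0.25 without old replicate 1.

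Of the membrane proteins, Slc12a2 gave 869.6 and 840.2 CPM in young pools and 1006 and 1028 CPM in old pools. Both old pools were above both young pools, and the difference between ages was larger than the gap between replicates of either age. The fitted change was 0.25 (SE 0.097, interval 0.047 to 0.45), or 1.19-fold, with an unadjusted p = 0.0186 and an FDR of 0.193 in edgeR's quasi-likelihood test, the lowest FDR of the 10. Without any single library the change stayed between 0.22 and 0.28.
Prom1 (chr5:43993620-44102032, minus strand), the pentaspan membrane glycoprotein also known as CD133, gave 169 and 153 CPM in young pools and 173 and 216 CPM in old pools. Old replicate 2 stood above the other 3 libraries, while old replicate 1 exceeded young replicate 1 by little. The change was 0.27 (SE 0.13, interval 0.006 to 0.53; FDR 0.287). Without old replicate 1, Prom1 was called higher (0.42, FDR 0.0248), and without old replicate 2 its change was 0.099 (FDR 0.757). Prom1 overlapped the gene Gm16401 on the opposite strand over 424 bases, and since the strand setting of the counting is not stated, reads there could not be assigned to either. Of its 50-base stretches, 5.10% also occurred in other genes, the largest share among the 10.

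The remaining genes act inside the cell. Cdca7 (chr2:72476159-72486893, plus strand), a nuclear protein of chromatin remodelling in dividing cells, gave 66.2 and 52.0 CPM in young pools and 60.2 and 54.9 CPM in old pools. The old pools fell between the young pools, and the change was -0.04 (SE 0.14, interval -0.33 to 0.25; FDR 0.925 by edgeR's quasi-likelihood test). Msi1 (chr5:115429599-115455698, plus strand), an RNA-binding protein of the Musashi family, gave 28.9 and 28.4 CPM in young pools and 29.9 and 24.5 CPM in old pools. Here the young replicates agreed closely and old replicate 2 lay below the other 3 libraries, with a change of -0.08 (SE 0.15, interval -0.39 to 0.24; FDR 0.849).

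**Figure D2:**
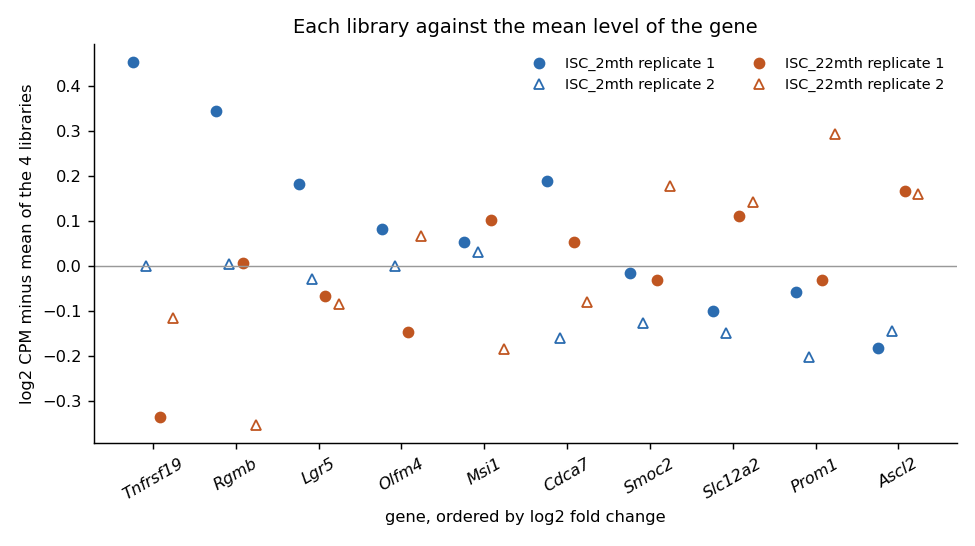
Log2 CPM of each library minus the mean of the 4 libraries for each gene, ordered by fold change, with blue symbols for ISC_2mth and orange for ISC_22mth. The old pools lie above both young pools for Slc12a2, Prom1 and Ascl2 and below both for Tnfrsf19 and Lgr5, and the ages overlap for the other 5 genes.

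Across the 10 genes, 4 were higher and 6 lower in old ISCs, and 0 passed an FDR of 0.05 in edgeR's quasi-likelihood test, with values between 0.193 and 0.925. Limma voom with sample quality weights, edgeR's likelihood ratio test and DESeq2 also called 0 of the 10, whereas over all genes they called 2.34%, 4.46% and 1.44%. At an unadjusted p under 0.05, 3 genes were higher (Ascl2, Slc12a2 and Prom1) and 2 were lower (Rgmb and Tnfrsf19), where 9.26% and 7.65% of all genes tested met the same threshold. Old pools lay wholly above young pools for 3 of the 10, against 24.0% of all genes, and wholly below for 2, against 23.6%, shares near the background.

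The median change of the 10 genes was -0.06 on the log2 scale, beside -0.0049 for all genes tested, and the median size of the change, irrespective of sign, was 0.20 beside 0.26 for all genes. The median gap between replicates was 0.13 in young and 0.21 in old ISCs. These gaps are between single pools and the change is between means of 2, so the values are not on an equal footing. In 3 genes, Ascl2, Slc12a2 and Tnfrsf19, the difference between ages exceeded the gap within both ages. Intervals lay within a 1.5-fold change for 7 of the 10, all but Ascl2, Rgmb and Tnfrsf19, and the widest bounds were 0.538 and 1.51 times the young level. Standard errors were between 0.097 and 0.21, below the median of 0.24 over all genes.

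Summed over the 10 genes, the libraries held 2879 and 2694 CPM in young pools and 2778 and 3015 CPM in old pools. Without Olfm4 and Slc12a2 the sums were 708 and 623 CPM in young and 660.4 and 697 CPM in old ISCs. As a share of all counts outside the mitochondrial genes, the members took 0.956% and 0.885% in young pools and 0.878% and 0.956% in old pools. By each of these 3 measures the ages overlapped. Young replicate 1 was above young replicate 2 in 9 of the 10 genes, all but Ascl2, and in the old pools replicate 1 was above replicate 2 in 5.

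When libraries were instead scaled by total counts, the change of every member moved down with that of all genes, whose median went to -0.50, a shift of -0.49. On that scale 6 members, Lgr5, Olfm4, Rgmb, Cdca7, Tnfrsf19 and Msi1, were called lower, together with 33.3% of all genes, and Ascl2, Smoc2, Slc12a2 and Prom1 turned negative. Relative to the shift, the change of Ascl2 was 0.33 and that of Lgr5 -0.16, as with TMM. The mitochondrial share of the library, which total counts include, differed between the ages as given above, and its part in these values was not tested.

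**Figure D3:**
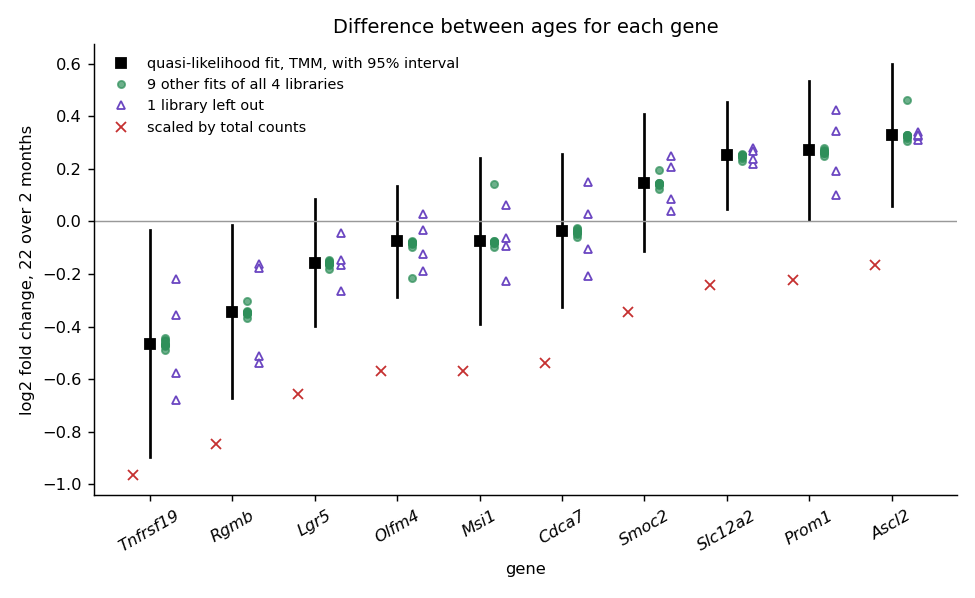
Log2 fold change of each gene, 22 over 2 months, with black squares and 95% intervals for the quasi-likelihood fit, green points for the 9 other fits of all 4 libraries, triangles for fits without 1 library, and crosses for scaling by total counts. Squares run from -0.46 for Tnfrsf19 to 0.33 for Ascl2, and the crosses lie lower by about the shift of all genes, -0.49.

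A longer list of 24 other genes known from CBC cells, all of them tested, held 0 called higher and 1 called lower in old ISCs, Nav1. Over all genes tested, 1.63% were called higher and 0.628% lower, and a single call says little of the list. Nav1, a microtubule-associated neuron navigator, gave 115 and 89.9 CPM in young pools and 60.2 and 72.7 CPM in old pools (log2 change -0.63, SE 0.14, FDR 0.0232 by edgeR's quasi-likelihood test). The call was lost without young replicate 1 (FDR 0.335) and with offsets for GC content and length (FDR 0.0980). The median change of the 24 was -0.15, with 17 lower and 7 higher, and old pools lay wholly below young pools for 12 and wholly above for 3, beside the shares of 23.6% and 24.0% over all genes.

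Axin2, a feedback inhibitor and common readout of Wnt signalling, was at the edge of the threshold. It gave 149 and 128 CPM in young pools and 102 and 98.6 CPM in old pools, without overlap (log2 change -0.46, SE 0.12, FDR 0.0511 by edgeR's quasi-likelihood test). It passed with limma voom (FDR 0.0263), the likelihood ratio test (0.0301), DESeq2 (0.0373) and the other alternative fits, apart from these exceptions. It fell short with the offsets for GC content and length (FDR 0.206) and without young replicate 1 (log2 change -0.35). Rnf43, an E3 ligase that removes Frizzled receptors, gave 125 and 109 CPM in young and 88.2 and 88.4 CPM in old ISCs (-0.41, FDR 0.0876), and -0.22 (FDR 0.437) with the same offsets. Pdgfa, a growth factor ligand, gave a change of -0.46 (FDR 0.0794). It passed with the likelihood ratio test (FDR 0.0446) but not with limma voom (0.0694), DESeq2 (0.162) or the offsets for GC content and length (0.117). Leaving out single libraries moved its change between -0.55 and -0.38.

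Of 27 genes for R-spondin receptors, Wnt receptors and mediators, 25 were tested, with 0 called higher and 1 lower. The shares over all genes tested were 1.63% and 0.628%, and the median change of the list was -0.10. The called gene was Bcl9l, a cofactor of beta-catenin, at 27.6 and 32.8 CPM in young and 17.0 and 18.02 CPM in old ISCs (-0.79, SE 0.16, FDR 0.0130 by edgeR's quasi-likelihood test). That call was lost without young replicate 2 (FDR 0.0870) and with the offsets for GC content and length (FDR 0.136). Apc, which targets beta-catenin for degradation, gave a change of 0.35 (FDR 0.111), and Tcf7l2, the main TCF factor of the crypt, -0.31 (FDR 0.214). Lgr6, the relative of Lgr5 that the table lists at 0 in all 4 libraries, was below the floor of 3 counts, which is between 0.188 and 0.257 CPM when scaled by the raw library totals, without TMM.
Of 16 Wnt target genes, 14 were tested and 0 were called in either direction by edgeR's quasi-likelihood test, with 5 at an unadjusted p under 0.05. Their median change was -0.23, and old pools lay wholly below young pools for 7 and wholly above for 2, beside 23.6% and 24.0% over all genes. The unadjusted threshold was met by 9.26% of all genes upward and 7.65% downward. The targets are not a separate set: 6 of the 16, Axin2, Rnf43, Sox9, Znrf3, Sp5 and Ephb3, also stood in the list of other CBC genes, 2, Tcf7 and Lef1, in the list of receptors and mediators, and 2, Cd44 and Ephb2, among the sort markers. Sox9, a transcription factor of the crypt base, gave 113 and 120.1 CPM in young and 91.9 and 100.2 CPM in old ISCs (-0.28, FDR 0.247).

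Relatives of the members in the same gene families had few or no reads for the most part. Of 21 listed, 20 were in the table and 7 passed the filter, with 0 called in either direction, 2 at an unadjusted p under 0.05 and a median change of -0.12. Another 7 had no read in any library, Lgr6 among them. Slc12a7, a potassium-chloride cotransporter, gave 51.0 and 51.4 CPM in young and 38.3 and 43.5 CPM in old ISCs (-0.32, FDR 0.221). Eda2r, a relative of Tnfrsf19, had 23 and 22 reads in young and 39 and 34 reads in old ISCs (0.91, SE 0.43, FDR 0.293). Msi2, the relative of Msi1, gave a change of -0.17 (FDR 0.538).

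The transcripts of the sorted surface proteins bear on the gate. Cd24a, which encodes CD24, was called higher in old ISCs, at 334 and 279.5 CPM in young and 475 and 508 CPM in old ISCs (0.68, SE 0.11, FDR 0.00348 by edgeR's quasi-likelihood test). Scaled by total counts, which moved all genes by -0.49, Cd24a was not called (FDR 0.291), and Ephb2 (-1.01), Cd44 (-0.74) and Epcam (-0.43) were called lower. Ephb2, the receptor tyrosine kinase that is graded along the crypt, gave 59.0 and 51.6 CPM in young and 35.6 and 41.7 CPM in old ISCs (-0.52, FDR 0.0576). It passed with limma voom (FDR 0.0452) and the likelihood ratio test (0.0249) but not with DESeq2 (0.0951), and gave -0.31 (FDR 0.311) with the offsets for GC content and length. Cd44 (-0.24, FDR 0.365), Alcam, which encodes CD166 (0.18, FDR 0.538), Hspa5, which encodes GRP78 (0.29, FDR 0.327), and Epcam (0.06, FDR 0.840) did not pass. Leaving out single libraries moved Cd44 between -0.40 and -0.10 and Alcam between 0.067 and 0.31, with no call. Hspa5 turned on the old pools, with a change of 0.00063 (FDR 0.998) without old replicate 1 and a call at 0.54 (FDR 0.00323) without old replicate 2. Pecam1, which encodes CD31, had 1, 0, 1 and 7 reads, and Ptprc, which encodes CD45, had 0, 0, 2 and 0.

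Cell division was read from a separate list. Of 20 proliferation genes, 0 were called in either direction by edgeR's quasi-likelihood test, with 2 at an unadjusted p under 0.05, and the median change was 0.02. Mki67 gave 902 and 948 CPM in young and 1003 and 1092 CPM in old ISCs (0.18, FDR 0.377), and Rrm2, a subunit of ribonucleotide reductase, gave 0.55 (FDR 0.0510), and passed with limma voom (FDR 0.0481) and the likelihood ratio test (0.0190) but not with DESeq2 (0.121).

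Markers of other crypt cell types were present and were not equal between libraries. The 12 Paneth cell markers summed to 1096 and 855 CPM in young pools and 2453 and 984 CPM in old pools. Of them, 3 were called higher, beside 1.63% of all genes tested, among them the defensins Defa30 (1.06) and Defa17 (1.11). Old replicate 1 stood apart. Without that library the changes were 0.40 for both genes, with Defa17 no longer called (FDR 0.117), and DESeq2 called neither (FDR 0.480 and 0.498). The 11 enterocyte markers summed to 535 and 656 CPM in young and 1085 and 903 CPM in old ISCs. Here too 3 were called higher, beside 1.63% of all genes tested. Among them were Fabp1 (2.35), a fatty acid-binding protein, and Sis (1.38), the brush border enzyme sucrase-isomaltase. The 9 goblet cell markers summed to 1955 and 2576 CPM in young and 2675 and 2084 CPM in old ISCs, with 0 called by edgeR's quasi-likelihood test and 1 at an unadjusted p under 0.05.
Enteroendocrine markers (43.4 to 155 CPM) and tuft cell markers (2.83 to 10.5 CPM) were scarcer. Among tested genes, 1 of 10 and 2 of 4 (of 8 tuft genes listed) were called higher, beside 1.63% of all genes tested. The enteroendocrine gene called was Sst, the hormone somatostatin, at 7 and 7 reads in young and 120 and 9 reads in old ISCs. Sst passed the filter only through old replicate 1, and without that library its change went from 3.36 to 0.63. The tuft genes called were Dclk1 (4 and 4 reads in young, 42 and 19 in old ISCs) and Ptgs1 (0 and 0, then 38 and 20). Both passed the filter only through the old pools, so their calls cannot be read as a result about the list. Leukocyte markers came to between 159 and 280 counts, nearly all from the integrin gene Itgam, which was called higher (0.78, FDR 0.0296) while Ptprc was at or near 0, and 7 of the 14 were at 0. The call of Itgam was lost with DESeq2 (FDR 0.0744) and without young replicate 1 (FDR 0.307). Stromal and endothelial markers came to 3 to 12 counts. The part of these cell types in the members' values was not tested.

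**Figure D4:**
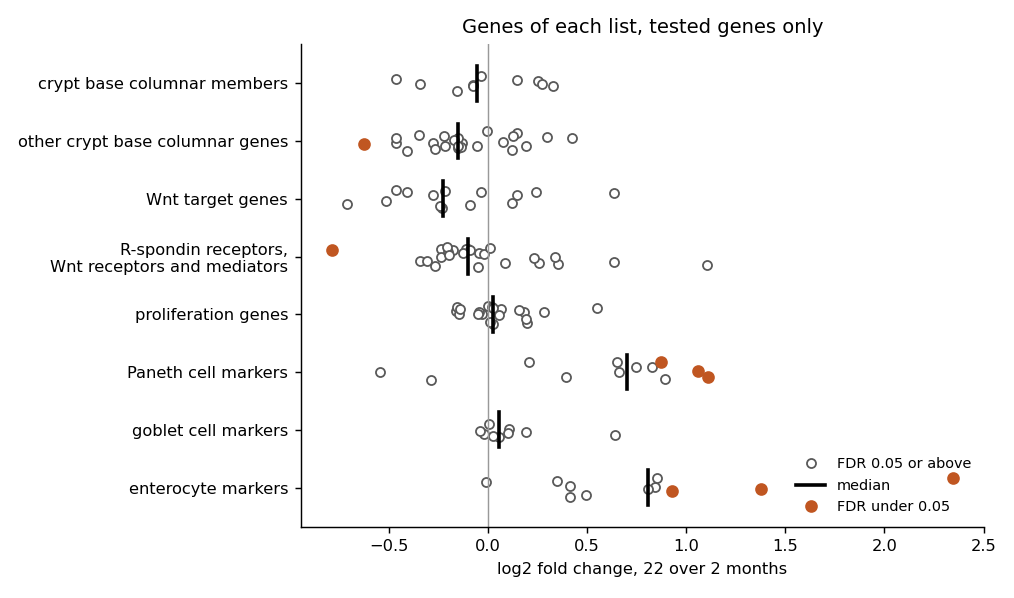
Log2 fold change of each tested gene, 22 over 2 months, by list, with the median as a bar and genes at an FDR under 0.05 filled. The members lie between -0.46 and 0.33 with none filled, the Paneth and enterocyte lists have medians of 0.70 and 0.81, and the other CBC genes have a median of -0.15.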

How the data were processed

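RNA of sorted ISCs was amplified by SPIA without molecular identifiers and sequenced single-end. The authors trimmed reads with Trimmomatic 0.30, aligned them with STAR 2.4.2a to GRCm38 and counted exonic reads of GENCODE vM15 genes with featureCounts, and they deposited raw counts per gene. Strand setting and treatment of multiply aligned reads are not given in the sources used here.

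Genes needed over 5 reads and over 1 CPM in any library, which kept 13692. Ages were compared with edgeR 4.0.16 (R 4.3.3), using TMM, glmQLFit and glmQLFTest with age as the sole term, and p-values were adjusted after Benjamini and Hochberg over these genes. Library totals were counts on kept genes. Standard errors came from the log2 fold change and the F value, and intervals from the t distribution with the degrees of freedom of the fit. Alternatives used limma 3.58.1 and DESeq2 1.42.0. Lengths, positions and overlaps came from GENCODE vM21, matched by symbol. Fits were tested on simulated data. Floors cover counting error only.

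Members and lists were chosen with earlier results of these data known. All members were named, with at most the 4 genes of lowest p in each other list, all sort markers, and the 3 genes most like Lgr5 over 4 libraries among those of at least 10 CPM.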

Additional observations from a re-analysis of the deposited data

How the results depend on the processing

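The fit was repeated under 14 alternatives. Of the 140 changes of single members, 123 kept their direction and their side of the threshold, 8 newly passed it and 9 reversed. Of the 391 changes of other named genes, 330 kept both, 41 newly passed, 14 lost the call and 6 reversed. With 2 pools per age, an exact permutation test of a single gene cannot go below p = 0.333, so calls rest on the spread shared over genes, and in fits without 1 library the lone pool is assumed to vary like the other age. Depth limited Tnfrsf19 most, at 132 to 250 counts.

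Genes called higher and lower in old ISCs, 223 and 86 as reported, were 375 and 236 with the likelihood ratio test, 147 and 50 with DESeq2, 96 and 4554 with total counts, and 357 and 197 with no filter. Offsets for GC content and length left 50 lower. Without 1 library, between 122 and 464 were higher and between 25 and 248 lower.

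Members called lower numbered 6 with total counts and 0 in the other fits of all libraries, and between 0 and 1 in each direction without 1 library. Their median change was -0.55 with total counts, 0.047 with the offsets, and between -0.11 and 0.058 without 1 library. Total counts reversed Ascl2 (-0.16), Smoc2 (-0.35), Slc12a2 (-0.24), Prom1 (-0.22), Apc (-0.14), Alcam (-0.30), Hspa5 (-0.20), Epcam (-0.43) and Mki67 (-0.31), by the shift of all genes of -0.49. The offsets reversed Msi1 (0.14), and the cause was not tested. Without 1 library, Cdca7 ranged from -0.21 to 0.15 (0.15 without young replicate 1 and 0.029 without old replicate 2), Olfm4 from -0.19 to 0.027 (0.027 without old replicate 1), Msi1 from -0.23 to 0.060 and Epcam from -0.035 to 0.14, the last 2 reversed without old replicate 2.

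Replicate numbers mark different animals and did not pair the libraries (correlation of deviations -0.00313). With a replicate block, 407 genes were higher and 216 lower, and no member was called.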
